A study of Mus musculus with 163 samples.

Results

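The oocyte-secreted TGF-beta growth factors described here are Gdf9 (growth differentiation factor 9), Bmp15 (bone morphogenetic protein 15) and Bmp6 (bone morphogenetic protein 6). They were chosen by name, as the rows of the count table whose Entrez identifiers map to these symbols, and all 3 were found among 21950 genes. Their transcripts were read with Smart-seq2 (poly(A)-primed, covering whole transcripts) in 163 single mouse oocytes of 7 groups. At the growing stage (GROs) there were 24 in vivo oocytes, 24 that were gonad-derived and 23 that were iPSC-derived. At the fully grown stage (FGOs) there were 20 in vivo oocytes, and 24 each of the 6 dpp, gonad-derived and iPSC-derived kind.

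The iPSC-derived oocytes are labelled as derived from BVSC-iPSC, 1 female line made from tail tip fibroblasts and carrying Blimp1-Venus and Stella-ECFP reporters. Cells of this line were turned into primordial germ cell-like cells (in vitro PGC differentiation, IVP). These were then aggregated with gonadal somatic cells of E12.5 Swiss Webster embryos into reconstituted ovaries. The study reports that some oocytes in such ovaries lacked Stella-ECFP and likely came from gonadal germ cells that had not been removed. Whether the sequenced oocytes were chosen by reporter is not given in the sources used here. The gonad-derived oocytes came from dissociated E12.5 gonads, whose germ and somatic cells were aggregated again. Both kinds of reconstituted ovary were cultured to form GROs (in vitro oocyte differentiation, IVD), with transient exposure to fulvestrant, an antagonist of the estrogen receptor. Their follicles were then grown to the FGO stage in culture (in vitro growth, IVG). The 6 dpp FGOs went through IVG alone, in follicles dissected 6 days after birth. The in vivo oocytes were not cultured, and their strain and age are not given in the sources used here. Per the study's methods, the IVG medium contained BMP15 and GDF9 protein in its early days. The proteins of 2 members were thus also added from outside in the 3 cultured FGO groups, and in no GRO group. The duration of culture differed between the groups, and its part in any difference was not tested. The study reports that iPSC-derived and gonad-derived GROs were larger than in vivo GROs. The part of oocyte size in any difference was not tested here.

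GDF9 and BMP15 are secreted by the oocyte and act on the surrounding granulosa and cumulus cells, where they promote growth of the follicle and expansion of the cumulus. They belong to the TGF-beta superfamily, are made as precursors that proprotein convertases cut, and act as homodimers or as a heterodimer. GDF9 signals through a type I receptor that activates SMAD2 and SMAD3, whereas BMP15 and BMP6 use BMP receptors that activate SMAD1, SMAD5 and SMAD9. In mice Gdf9 is required for female fertility, and follicles without it stop growing at the primary stage, while loss of Bmp15 alone reduces fertility. The ligands of this superfamily share a C-terminal domain of conserved cysteines, the cystine knot.

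The coding sequence of this domain is shown because it is what the 3 genes have in common and because it bears on whether their reads could be confused. Each stretch holds 300 coding bases, starting at the first cysteine codon of the C-terminal domain, and in-frame cysteine codons (TGT or TGC) are in capitals. Sequences are from GENCODE release M21 on GRCm38 and run 5′ to 3′ along the transcript. The stretch of Gdf9 lies in exon 2 of 2 at chr11:53437236-53437535 on the plus strand. That of Bmp15 lies in exon 2 of 2 at chrX:6315639-6315938 on the minus strand, and that of Bmp6 is spliced from 3 exons within chr13:38497324-38499059 on the plus strand.
Gdf9: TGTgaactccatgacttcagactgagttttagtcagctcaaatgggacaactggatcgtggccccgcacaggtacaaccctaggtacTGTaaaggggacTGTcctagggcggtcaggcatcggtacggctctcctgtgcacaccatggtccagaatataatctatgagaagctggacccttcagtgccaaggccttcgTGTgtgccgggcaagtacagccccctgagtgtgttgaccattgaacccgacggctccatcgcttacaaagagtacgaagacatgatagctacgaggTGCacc
Bmp15: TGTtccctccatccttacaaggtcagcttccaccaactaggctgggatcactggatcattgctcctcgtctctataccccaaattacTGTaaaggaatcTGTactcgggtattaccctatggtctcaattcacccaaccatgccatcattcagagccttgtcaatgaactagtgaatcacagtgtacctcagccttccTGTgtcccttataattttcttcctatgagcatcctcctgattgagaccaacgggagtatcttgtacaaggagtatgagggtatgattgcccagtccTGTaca
Bmp6: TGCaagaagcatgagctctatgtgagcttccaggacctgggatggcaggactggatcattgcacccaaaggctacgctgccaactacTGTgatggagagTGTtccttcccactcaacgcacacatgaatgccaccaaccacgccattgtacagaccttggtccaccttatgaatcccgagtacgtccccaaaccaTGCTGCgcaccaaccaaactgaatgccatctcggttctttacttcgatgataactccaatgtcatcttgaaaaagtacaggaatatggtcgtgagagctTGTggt
In the domain up to the stop codon Gdf9 and Bmp15 each had 6 cysteine codons and Bmp6 had 7. The additional codon of Bmp6 is seen as a pair of adjacent cysteine codons (TGCTGC), where Gdf9 and Bmp15 have a single cysteine codon. Over the aligned bases of the domain the identity was 55.2% between Gdf9 and Bmp15, 53.2% between Gdf9 and Bmp6 and 54.7% between Bmp15 and Bmp6. No stretch of 75 bases was shared by any pair of the 3 annotated transcripts, and the longest shared stretch of a pair had 12 or 13 bases.

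Levels are given in counts per 1000000 reads (CPM). A pooled level sums the reads of all oocytes of a group. Ratios between groups are differences of log2(pooled CPM + 0.5), with the first-named group on top, and FGOs on top in growth. Since the labels tie no oocyte to an animal, donor or culture, a whole group was taken as a single sample. Ratios therefore come without tests or standard errors, and none had a replicate check. The 95% intervals (exact Poisson, from the pooled count) cover counting error only, as reads were amplified by PCR and carry no molecular identifier. Totals ran from 2.17 to 13.7 M reads per oocyte (M, 1000000), with a median of 6.93 M reads. A level is a share of the library, and the amount of mRNA per oocyte was not measured here. All 12 oocyte markers, among them Zp3, Padi6 and Ddx4, lay above 1 pooled CPM in every group. The markers summed to group medians of 46007 to 56691 CPM in GROs and 18668 to 32256 CPM in FGOs. Leaving out the libraries that stood apart or were shallow (in vivo FGOs 5, 7, 19 and 22, gonad-derived FGOs 5 and 22, and 6 dpp FGO 12) brought no member's ratio over the 2-fold line in either direction. Gonad-derived FGO 19 was not among these, although its oocyte markers summed to 13669 CPM, the lowest of its group (median 20569 CPM). The in vivo GROs numbered 17 to 24 differed from the others in many genes, Bmp6 among them, and the members' results that rest on them are also given without them.

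Gdf9 took between 0.497% and 1.13% of all reads in the 7 groups, the lowest share in iPSC-derived FGOs. Its pooled level in GROs was 10246 CPM in vivo (95% interval 10230 to 10262), 11175 CPM for gonad-derived (11158 to 11191) and 11285 CPM in iPSC-derived oocytes (11269 to 11301). In FGOs it was 4974 CPM for iPSC-derived (4964 to 4985), 7701 CPM for gonad-derived (7688 to 7715), 6318 CPM for 6 dpp (6306 to 6331) and 9569 CPM for in vivo oocytes (9553 to 9585). The 3 GRO groups thus lay close together, whereas the FGO groups were spread out with the in vivo oocytes at the top and the iPSC-derived oocytes at the bottom.

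Over single GROs, the lowest, median and highest Gdf9 level was 9082, 11164 and 14247 CPM for iPSC-derived, 10172, 11123 and 12402 CPM for gonad-derived and 9145, 10149 and 11242 CPM for in vivo oocytes. Over single FGOs it was 2913, 4988 and 8088 CPM for iPSC-derived, 5222, 7490 and 10783 CPM for gonad-derived, 3676, 6523 and 8588 CPM for 6 dpp and 5531, 9841 and 11407 CPM for in vivo oocytes. The iPSC-derived FGOs were all below every GRO of the 3 sources, as were all 6 dpp FGOs, while gonad-derived and in vivo FGOs overlapped the GROs. The lowest in vivo FGO was oocyte 18, and the next had 7582 CPM. In the order of pooled levels each group overlapped its neighbour in range, so that no step of the order was larger than the spread between oocytes.

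Bmp15 was highest in in vivo FGOs. Its pooled level was 3188 CPM for iPSC-derived (3180 to 3197), 3423 CPM for gonad-derived (3414 to 3432) and 3374 CPM for in vivo GROs (3365 to 3383). In FGOs it was 3683 CPM for iPSC-derived (3674 to 3693), 4130 CPM for gonad-derived (4120 to 4140), 4570 CPM for 6 dpp (4560 to 4581) and 5676 CPM for in vivo oocytes (5664 to 5689). All 4 FGO groups were therefore above all 3 GRO groups in pooled level, and the FGO groups were ordered by how much of their development had taken place in culture.

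Over single GROs, the lowest, median and highest Bmp15 level was 1672, 3235 and 4378 CPM for iPSC-derived, 2326, 3505 and 4442 CPM for gonad-derived and 2793, 3371 and 4364 CPM for in vivo oocytes. Over single FGOs it was 3222, 3681 and 4971 CPM for iPSC-derived, 2737, 4156 and 5234 CPM for gonad-derived, 3302, 4645 and 5582 CPM for 6 dpp and 4678, 5535 and 7165 CPM for in vivo oocytes. Neighbouring groups overlapped throughout the order. The in vivo FGOs lay entirely above all 3 GRO groups. In iPSC-derived GRO 8, gonad-derived GRO 7 and gonad-derived FGO 19 Bmp15 was the lowest of the group, while Gdf9 lay above the group's median.

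Bmp6 varied little between groups. Its pooled level was 39.5 CPM for iPSC-derived (38.6 to 40.5), 39.1 CPM for gonad-derived (38.2 to 40.1) and 49.8 CPM for in vivo GROs (48.7 to 50.9), or 38.9 CPM for in vivo GROs 1 to 16 alone. In FGOs it was 50.9 CPM for iPSC-derived (49.9 to 52.0), 47.1 CPM for gonad-derived (46.1 to 48.2), 43.4 CPM for 6 dpp (42.4 to 44.5) and 45.7 CPM for in vivo oocytes (44.6 to 46.8). The whole span between groups was smaller than the range over oocytes within any of them.

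Over single GROs, the lowest, median and highest Bmp6 level was 29.8, 37.9 and 61.8 CPM for iPSC-derived, 27.2, 40.0 and 46.9 CPM for gonad-derived and 30.1, 43.0 and 88.3 CPM for in vivo oocytes. Over single FGOs it was 35.9, 49.9 and 61.8 CPM for iPSC-derived, 35.0, 47.5 and 55.0 CPM for gonad-derived, 31.8, 44.2 and 51.4 CPM for 6 dpp and 36.0, 45.8 and 66.4 CPM for in vivo oocytes. The in vivo GROs stood out by their width, which is taken up further on.

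**Figure D1:**
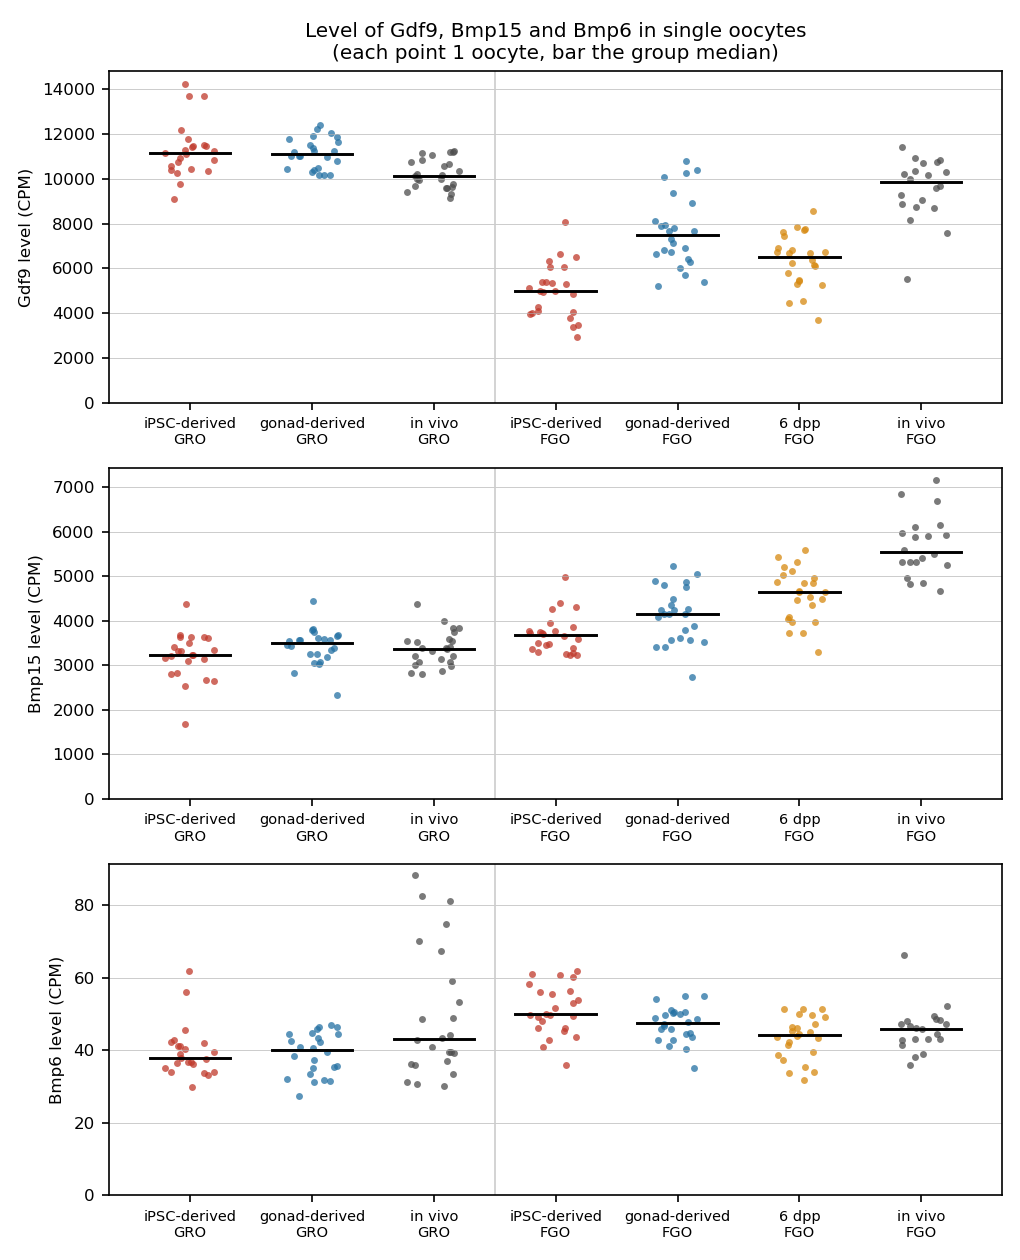
Level of Gdf9, Bmp15 and Bmp6 in CPM (linear axes from 0) in each of 163 oocytes, by group. Points are oocytes and bars are group medians. Gdf9 medians lie between 10149 and 11164 CPM in GROs and between 4988 and 9841 CPM in FGOs, Bmp15 has its highest median of 5535 CPM in in vivo FGOs, and Bmp6 spreads from 30.1 to 88.3 CPM in in vivo GROs.

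To compare the members with each other, reads were divided by the length of the transcript counted. The pooled Gdf9 level per length ran from 2640 reads per kb per 1000000 reads in iPSC-derived FGOs to 5990 in iPSC-derived GROs and ranked between the highest and the 9th highest of all genes in the 7 groups. The pooled Bmp15 level per length ran from 1014 in iPSC-derived GROs to 1806 in in vivo FGOs, with ranks from 19 to 41. The pooled Bmp6 level per length ran from 14.5 in gonad-derived GROs to 18.9 in iPSC-derived FGOs, with ranks from 3563 to 4246. Gdf9 was thus the most abundant member per length in every group and Bmp6 the least.

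The spread between oocytes, given as the SD of log2(CPM + 1), differed between the stages for Gdf9. It was 0.15 for iPSC-derived, 0.09 for gonad-derived and 0.09 for in vivo GROs, and 24.1%, 0.838% and 0.570% of genes of at least 100 CPM had a lower SD, respectively. In FGOs it was 0.35 for iPSC-derived, 0.30 for gonad-derived, 0.29 for 6 dpp and 0.24 for in vivo oocytes, above the median of genes of at least 100 CPM in each group (0.22, 0.28, 0.19 and 0.18). Gdf9 was therefore among the most even transcripts of gonad-derived and in vivo GROs, and less even than the median gene in iPSC-derived and 6 dpp FGOs whichever oocyte was left out. Without in vivo FGO 18 the SD in in vivo FGOs was 0.16, below the median of 0.17. In gonad-derived FGOs the outcome depended on the oocyte left out. Without oocyte 24 the SD of Gdf9 was 0.28, its lowest with any 1 oocyte left out, and below the median of 0.29. Without oocyte 19 the median was 0.19, below any of these Gdf9 values. For Bmp15 the SD was 0.27, 0.18 and 0.16 in iPSC-derived, gonad-derived and in vivo GROs and 0.16, 0.22, 0.19 and 0.17 in FGOs (iPSC-derived, then gonad-derived, then 6 dpp, then in vivo), so it showed no such division by stage. For Bmp6 the SD was 0.47 in in vivo GROs (0.21 with oocytes 1 to 16 alone) and between 0.15 and 0.23 in the other groups.

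Growth in vivo asked how levels change from GROs to FGOs without culture. Bmp15 was 1.68-fold higher in in vivo FGOs (ratio 0.75), and each of the 20 FGOs was above each of the 24 GROs, as was the case for 2.26% of 13148 genes tested. Gdf9 was nearly level (ratio -0.10), with 7 FGOs below every GRO, 1 above every GRO and the remaining FGOs within their range. Bmp6 had a ratio of -0.12, which became 0.23 with the in vivo GROs numbered 1 to 16 alone. No member reached 2-fold, against 10.4% of genes at least 2-fold higher and 13.2% at least 2-fold lower. The median ratio of all genes tested was -0.11.

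Growth of iPSC-derived oocytes gave another picture for Gdf9. It was 2.27-fold lower in FGOs than in GROs (ratio -1.18), with all 24 FGOs below all 23 GROs. Among 13115 genes tested, 15.3% were at least 2-fold lower and 5.62% had every FGO below every GRO (6.69% were at least 2-fold higher), and among genes of at least 50 CPM 4.08% had a lower ratio. Bmp15 was slightly higher in FGOs (ratio 0.21), with 22 of 24 FGOs above the GRO median. Bmp6 had a ratio of 0.36, with 23 of 24 FGOs above the GRO median. Gdf9 was the only member at least 2-fold apart, and this was its only such comparison of the 11 made. The median ratio of all genes tested was -0.11.

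Growth of gonad-derived oocytes lay between these. Gdf9 was 1.45-fold lower in FGOs (ratio -0.54), with 21 of 24 FGOs below every GRO. Bmp15 had a ratio of 0.27, with 21 of 24 FGOs above the GRO median, and Bmp6 had a ratio of 0.27, with 23 of 24 above it. No member reached 2-fold, against 5.82% of 13068 genes at least 2-fold higher and 9.98% at least 2-fold lower, and the median of all these genes was -0.05.

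Set beside growth in vivo, the Gdf9 ratio was lower by 1.08 in iPSC-derived and by 0.44 in gonad-derived oocytes, on the log2 scale. The Bmp15 ratio was lower by 0.54 and 0.48, respectively. Over the 3771 genes of at least 50 CPM these differences had medians of 0.02 and -0.01, and 2.52% and 12.49% of genes had a lower difference than Gdf9, against 13.6% and 10.9% for Bmp15. These differences share the in vivo libraries and were not tested. The Gdf9 and Bmp15 ratios were thus lower than in vivo in both cultured sources, by unequal amounts for Gdf9 and by similar amounts for Bmp15. The Bmp6 ratio was higher than in vivo by 0.49 and 0.39, with 82.8% and 80.0% of genes lower, and by 0.13 and 0.04 with in vivo GROs 1 to 16 alone.

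At the GRO stage the members differed little between sources, although the study reports larger oocytes in both cultured groups than in vivo. In IVP@GRO, which sets iPSC-derived against gonad-derived GROs, the ratios were 0.01 for Gdf9, -0.10 for Bmp15 and 0.01 for Bmp6, and the ranges overlapped for all 3. None reached 2-fold, against 2.03% of 13029 genes higher and 1.8% lower by that size. In IVD@GRO, gonad-derived against in vivo GROs, the ratio was 0.13 for Gdf9, with all 24 gonad-derived GROs above the in vivo median and 10 above every in vivo GRO. The ratio was 0.02 for Bmp15. For Bmp6 it was -0.34, and 0.01 with the in vivo GROs numbered 1 to 16 alone. None reached 2-fold, against 4.3% of 13059 genes higher and 2.75% lower. With IVP and IVD together, iPSC-derived against in vivo GROs, the ratios were 0.14 for Gdf9, -0.08 for Bmp15 and -0.33 for Bmp6, the last again 0.02 with oocytes 1 to 16 alone, and 5.61% of 13136 genes were at least 2-fold higher and 4.38% lower.

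At the FGO stage Gdf9 and Bmp15 had lower pooled levels in all 3 cultured groups than in vivo. The summed oocyte markers were lower there too. Their medians were 18668, 20569 and 20393 CPM in iPSC-derived, gonad-derived and 6 dpp FGOs and 32256 CPM in in vivo FGOs. Any link between the members and these markers was not tested. In IVG@FGO, 6 dpp against in vivo FGOs, Gdf9 was 1.51-fold lower (ratio -0.60), with all 24 cultured oocytes below the in vivo median and 7 below every in vivo FGO, or 19 without in vivo FGO 18. Bmp15 was 1.24-fold lower (ratio -0.31), with 14 of 24 cultured oocytes below every in vivo FGO. Bmp6 had a ratio of -0.07 with 9 oocytes above and 15 below the in vivo median. None reached 2-fold, against 1.25% of 12932 genes higher and 3.12% lower.

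In IVD@FGO, gonad-derived against 6 dpp FGOs, the directions of Gdf9 and Bmp15 differed. Gdf9 had a ratio of 0.29, with 18 of 24 gonad-derived FGOs above the 6 dpp median, and Bmp15 had a ratio of -0.15, with 18 of 24 below it. Bmp6 had a ratio of 0.12. None reached 2-fold, against 1.64% of 12977 genes higher and 0.948% lower. In IVP@FGO, iPSC-derived against gonad-derived FGOs, Gdf9 was 1.55-fold lower (ratio -0.63), with 14 of 24 iPSC-derived FGOs below every gonad-derived FGO. The ratios were -0.16 for Bmp15 and 0.11 for Bmp6, and 2.3% of 12889 genes were at least 2-fold higher and 3.9% lower. A gap between iPSC-derived and gonad-derived oocytes in Gdf9 was thus seen in FGOs and was near 0 in GROs, a difference between stages that was not tested.

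The whole culture, iPSC-derived against in vivo FGOs, gave a Gdf9 ratio of -0.94 (1.92-fold lower, 18 of 24 oocytes below every in vivo FGO). The Bmp15 ratio was -0.62 (1.54-fold lower, 23 of 24 below every in vivo FGO), and the Bmp6 ratio was 0.15. Both lower ratios stayed short of 2-fold, which 10.3% of 12972 genes passed downwards and 4.21% upwards. For gonad-derived against in vivo FGOs the ratios were -0.31 for Gdf9, -0.46 for Bmp15, with 18 of 24 oocytes below every in vivo FGO, and 0.04 for Bmp6, and 2.14% of 12984 genes were at least 2-fold higher and 3.43% lower. These comparisons share groups with each other and with the growth comparisons.

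**Figure D2:**
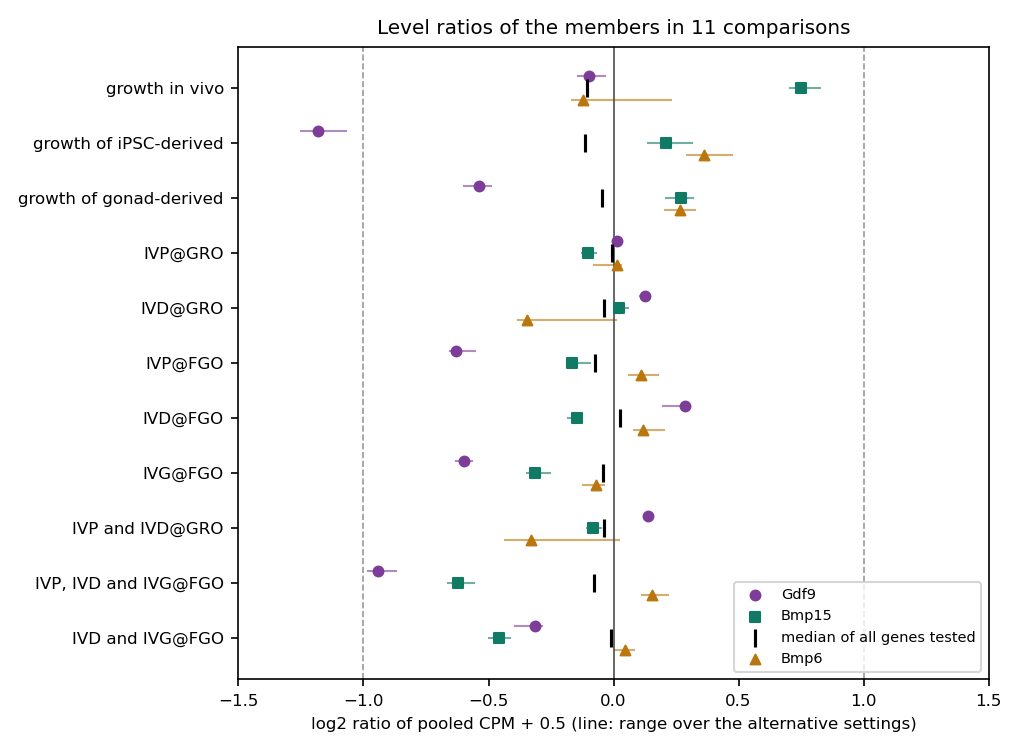
Ratios of pooled levels (log2, horizontal axis) of the 3 members in the 11 comparisons (vertical axis). Symbols are members, thin lines run from the lowest to the highest value over the alternative settings, black ticks are the median of all genes tested and dashed lines mark 2-fold. Gdf9 passes 2-fold once, at -1.18 in growth of iPSC-derived oocytes, and the lines of Bmp6 reach across 0 in 4 comparisons, of which 3 use in vivo GROs.

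The levels of somatic markers were read beside these results. The summed level of 12 granulosa markers in the table had group medians from 50.5 to 54.2 CPM in GROs and from 89.8 to 128 CPM in FGOs. Its most counted gene in the FGO groups was Cyp19a1 (61.9 to 77.2 pooled CPM), which encodes aromatase. In GROs only 4 or 5 of the 12 markers were above 1 pooled CPM, so the sum there rested on few genes. The most counted was Cyp19a1 in iPSC-derived GROs (20.1 CPM) and Nr5a2 in gonad-derived and in vivo GROs (25.7 and 27.3 CPM). In 6 dpp FGO 12 the sum was 1630 CPM, and in in vivo FGO 19 it was 413 CPM. The cumulus list had Ptx3 at 0 reads in 5 of the groups and Has2, a hyaluronan synthase, at 0.0618 to 2.03 pooled CPM. In theca and stroma markers, Hsd3b1 reached 49.4 pooled CPM in 6 dpp FGOs and was at or below 3.10 CPM wherever it led the list in another group. The sum of all 11 theca and stroma markers in 6 dpp FGOs had a median of 14.9 CPM. It was 832 CPM in oocyte 12 and 345 CPM in the next highest, so the pooled Hsd3b1 level does not describe a typical oocyte of the group. Within groups the rank correlation (Spearman) over oocytes of the granulosa sum was 0.64, 0.70 and 0.47 with Bmp15 and -0.56, -0.31 and -0.31 with Gdf9, for the iPSC-derived, then the gonad-derived and then the in vivo GROs (n of 23, 24 and 24). In the FGO groups (n of 20 to 24) it ran from -0.17 to 0.06 with Bmp15 and from -0.35 to 0.21 with Gdf9. All of these values share the scaling by library total, and the part of somatic RNA in the members' differences was not tested.

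Within an oocyte, the ratio of Gdf9 to Bmp15 per length does not depend on the library total. Its lowest, median and highest value was 4.23, 5.92 and 14.2 for iPSC-derived, 4.28, 5.32 and 8.50 for gonad-derived and 3.83, 5.03 and 6.67 for in vivo GROs. In FGOs it was 1.47, 2.23 and 3.03 for iPSC-derived, 2.13, 3.07 and 5.44 for gonad-derived, 1.86, 2.35 and 2.96 for 6 dpp and 1.86, 2.81 and 3.69 for in vivo oocytes. Gdf9 exceeded Bmp15 per length in every oocyte, and FGOs were lower than GROs. In vivo and in iPSC-derived oocytes the FGOs and GROs did not overlap, and in gonad-derived oocytes FGO 19 alone reached into the GRO range. That FGO also had the lowest oocyte marker sum of its group. The FGO median was 0.56 times the GRO median in vivo, 0.58 times for gonad-derived and 0.38 times in iPSC-derived oocytes.

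The route to this lower ratio differed by source. In vivo Bmp15 was higher in FGOs and Gdf9 nearly level, whereas in iPSC-derived oocytes Gdf9 was lower and Bmp15 only slightly higher. Among FGO groups the ratio did not follow the extent of culture. Its median in gonad-derived FGOs was 1.31 times that in 6 dpp FGOs (higher in 91.0% of oocyte pairs), and in 6 dpp FGOs it was 0.84 times that in in vivo FGOs (higher in 16.2% of pairs). The highest ratio of all, 14.2 in iPSC-derived GRO 8, went with 14247 CPM of Gdf9, the highest of its group, and 1672 CPM of Bmp15, the lowest, in a library of 7.13 M reads. The next highest ratio of that group was 7.44.

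The ratio of Bmp6 to Bmp15 per length was small throughout. Its median was 0.0139 for iPSC-derived, 0.0136 for gonad-derived and 0.0158 for in vivo GROs, and 0.0161, 0.0128, 0.0115 and 0.00927 in FGOs, for the iPSC-derived, then the gonad-derived, the 6 dpp and the in vivo oocytes. Of 24 iPSC-derived FGOs, 20 lay above every in vivo FGO. From pooled reads the ratio was 0.0173 in in vivo GROs and 0.0162 in iPSC-derived FGOs. With in vivo GROs 1 to 16 alone the order was turned, with a pooled ratio of 0.0133 and a median of 0.0136.

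**Figure D3:**
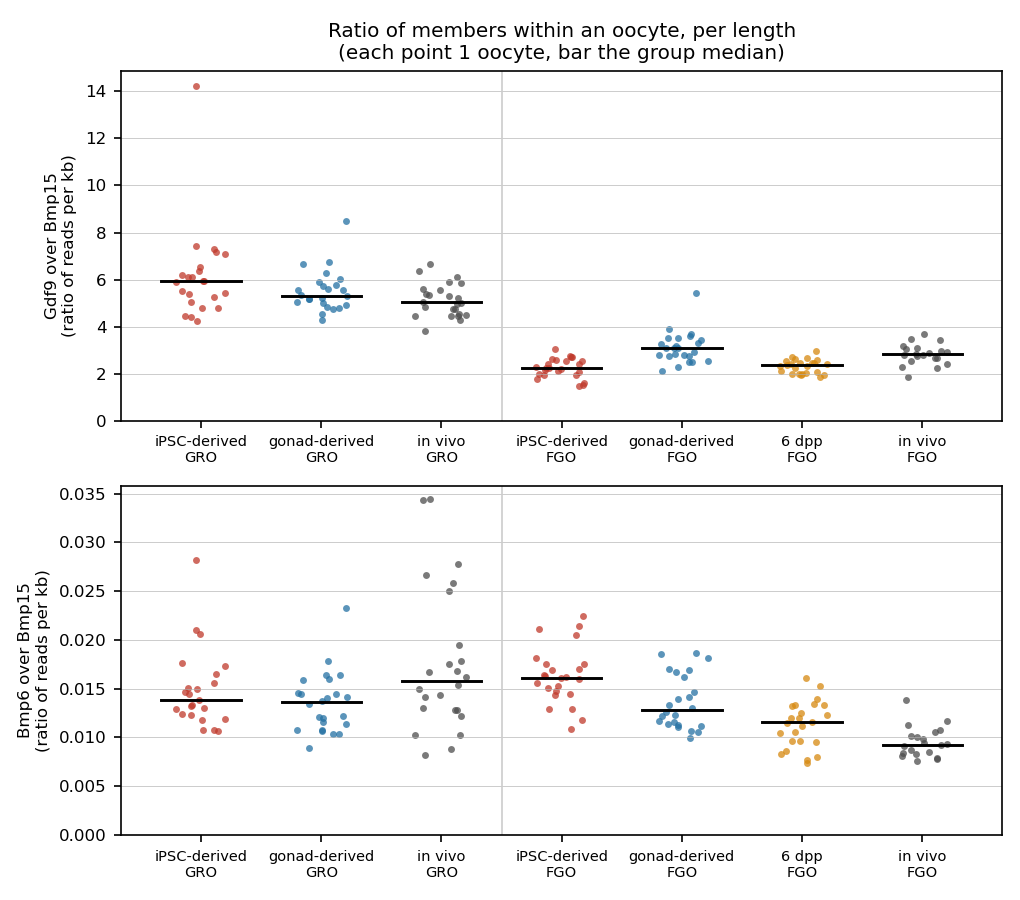
Ratio of reads per kb of Gdf9 over Bmp15 (upper panel) and of Bmp6 over Bmp15 (lower panel) in each oocyte, by group, on linear axes from 0. Points are oocytes and bars are group medians. The Gdf9 over Bmp15 medians lie between 5.03 and 5.92 in GROs and between 2.23 and 3.07 in FGOs, and iPSC-derived GRO 8 stands alone at 14.2.

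Over the oocytes of a group, Gdf9 and Bmp15 levels went together in FGOs and not in GROs. Pearson correlations of log2(CPM + 1) were 0.66 for iPSC-derived, 0.44 for gonad-derived, 0.79 for 6 dpp and 0.38 for in vivo FGOs (n of 24, 24, 24 and 20). In GROs they were -0.42 for iPSC-derived, -0.17 for gonad-derived and -0.11 for in vivo oocytes (n of 23, 24 and 24). Without iPSC-derived GRO 8 the first was -0.10 (n of 22), and under TMM scaling the other two were 0.00326 and 0.0786. Without gonad-derived FGO 19 the correlation in gonad-derived FGOs was 0.65 (n of 23). The oocytes of a group share their source, and both levels share the scaling by library total, so these values are descriptions. Gdf9 and Bmp6 had correlations between -0.43 and -0.26 in the FGO groups and 0.27, 0.39 and -0.08 in iPSC-derived, gonad-derived and in vivo GROs. With in vivo GROs 1 to 16 alone the last was 0.52 (n of 16). For iPSC-derived GROs the rank correlation (Spearman) was 0.09 in place of 0.27. Bmp15 and Bmp6 had correlations between -0.44 in in vivo GROs (-0.55 with oocytes 1 to 16 alone) and 0.21 for in vivo FGOs.

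The wide spread of Bmp6 in in vivo GROs followed the number in the oocyte's label. The 16 oocytes numbered 1 to 16 had 30.1 to 48.9 CPM, with a median of 39.3 CPM. The 8 oocytes numbered 17 to 24 had 53.1 to 88.3 CPM, with a median of 72.4 CPM. These sets, chosen after the values were seen, did not overlap, and the labels do not say what the number stands for. Gdf9 and Bmp15 overlapped between the sets, with medians of 10404 and 9974 CPM for Gdf9 and 3376 and 3263 CPM for Bmp15. Library totals had medians of 6.87 and 6.82 M reads. The granulosa sums ran from 32.0 to 65.2 CPM (median 48.6) in the first set and from 18.7 to 90.8 CPM (median 56.2) in the second. The sums of 11 theca and stroma markers ran from 1.56 to 8.67 CPM (median 3.43) and from 4.00 to 18.9 CPM (median 6.83), and the part of such RNA in the division was not tested.

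The division was not particular to Bmp6. Of 12447 genes tested in in vivo GROs, 5.45% had every oocyte of the second set above every oocyte of the first and 1.29% had every one below. Of 60 list genes tested, 4 were higher without overlap (Tgfbr1, Bmpr2, Bmpr1a and Smad4) and 1 was lower (Twsg1). Tgfbr1, the type I receptor used by TGF-beta and GDF9, had 28.7 to 59.6 CPM in oocytes 1 to 16 and 69.8 to 103.8 CPM in oocytes 17 to 24. Twsg1, a BMP-binding protein, had 15.4 to 25.6 CPM in oocytes 1 to 16 and 3.80 to 11.6 CPM in oocytes 17 to 24. Bmpr2 had 16.48 to 44.0 CPM in the first set and 59.4 to 80.8 CPM in the second. Bmpr1a, a BMP type I receptor, had 13.9 to 27.4 and 43.3 to 72.9 CPM, and Smad4 had 24.8 to 57.0 and 81.8 to 134.9 CPM. In growth in vivo the ratio of Tgfbr1 was -1.57 with all in vivo GROs, -1.10 with oocytes 1 to 16 and -2.21 with oocytes 17 to 24. That of Twsg1 was -1.40, -1.74 and -0.31, respectively. The lower pooled Bmp6 level of cultured GROs thus rested on the 8 oocytes numbered 17 to 24.

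**Figure D4:**
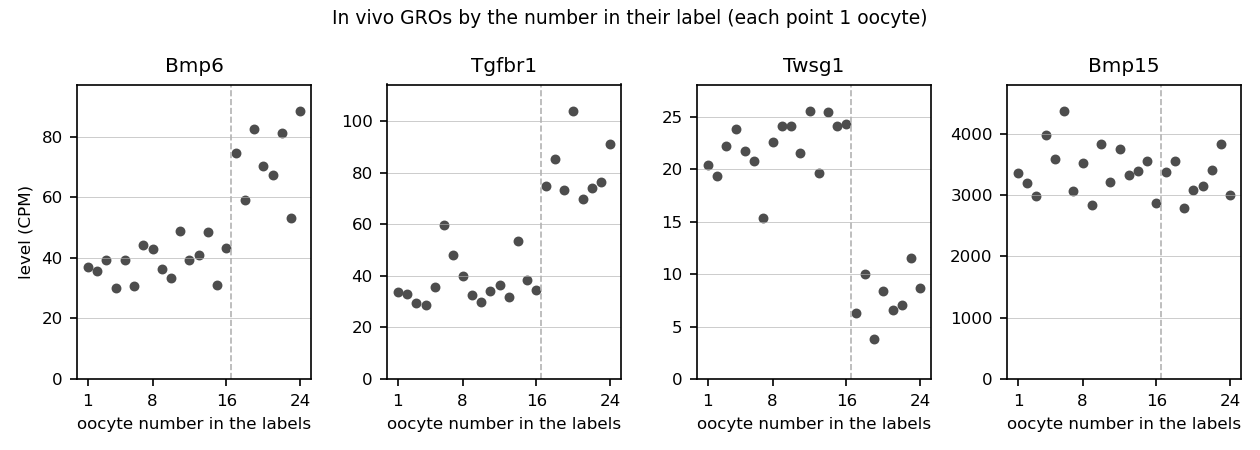
Level in CPM (linear axes from 0) of Bmp6, Tgfbr1, Twsg1 and Bmp15 in the 24 in vivo GROs, by the number in their label. Points are oocytes and the dashed line separates numbers 16 and 17. Bmp6 and Tgfbr1 are higher and Twsg1 is lower to the right of the line without overlap, while Bmp15 overlaps.

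The genes most like each member over oocytes were found from Pearson correlations of log2(CPM + 1) over all 163 oocytes after subtraction of group means, among 3769 genes of at least 50 mean CPM. For Gdf9 they were Astl (0.76), Ap1b1 (0.72) and Pigs (0.72). Astl encodes ovastacin, the oocyte protease that cleaves ZP2 after fertilization. For Bmp15 they were Aass (0.69), Mat2b (0.67) and Cyp4f39 (0.63), and for Bmp6 they were Kcmf1 (0.68), Phc2 (0.67) and Pcbp2 (0.64). Without in vivo GROs 17 to 24 (155 oocytes) the values for Bmp6 were 0.32, 0.30 and 0.19, so that its likeness rested largely on the division of in vivo GROs, whereas those for Gdf9 ran from 0.73 to 0.77 and those for Bmp15 from 0.62 to 0.69. The median correlation over all these genes was close to 0 for each member. By the pooled levels of the 7 groups, the most like genes were Caprin2, Lrpprc and Cdip1 for Gdf9 (0.99 to 1.00), Rnf17, Cers5 and Il17f for Bmp15 (0.98 to 1.00) and Arhgap21, Dnajb11 and Tent4a for Bmp6 (0.97). These rest on 7 points, with all in vivo GROs in 1 of them, and values above 0.9 were reached by 3.93% of genes with Gdf9, 1.19% with Bmp15 and 0.239% with Bmp6.

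The rest of the pathway was read from 8 lists with 103 genes, of which 98 were in the table. In all 11 comparisons together 38 of the 73 list genes tested were at least 2-fold apart at least once, as were 41.1% of all 14050 genes tested. In growth in vivo 10.4% of all genes tested were at least 2-fold higher and 13.2% lower, in growth of iPSC-derived oocytes 6.69% and 15.3%, and in growth of gonad-derived oocytes 5.82% and 9.98%. The lists hold few genes, and counts in them are descriptions to be read beside these shares.

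Receptors and co-receptors had 12 of 16 genes tested in each growth comparison. Bmpr1b, the BMP type I receptor, was the most abundant per length (21.6 to 33.4 on that scale). In growth in vivo 2 were at least 2-fold lower and none higher, and the list's median ratio was -0.33. With in vivo GROs 1 to 16 alone 2 were higher (Bmpr2 1.29 and Acvr1, a type I receptor, 1.68) and 1 was lower (Tgfbr1 -1.10), and the median was -0.07. Tgfbr1 was the largest, from 52.0 CPM in GROs to 17.2 CPM in FGOs, and the other was Acvr2b (ratio -1.33), a type II receptor of activins, whose ratio was -0.74 with in vivo GROs 1 to 16 alone. In growth of iPSC-derived oocytes Tgfbr1 had a ratio of -1.95 and Bmpr2, the type II receptor that GDF9, BMP15 and BMP6 use, went from 27.5 CPM to 90.7 CPM (ratio 1.71). In growth of gonad-derived oocytes these ratios were -1.27 and 1.36. In growth in vivo the ratio of Bmpr2 was 0.69 with all in vivo GROs. In IVD@GRO Tgfbr1 (-1.04) and Acvr2b (-1.05) were just past 2-fold, and without in vivo GRO 20 or 17, respectively, they were at -0.98 and -0.95. With oocytes 1 to 16 they were at -0.57 and -0.47. Between iPSC-derived and in vivo FGOs Tgfbr1 had a ratio of -1.33.

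Of the 8 SMAD genes, the 5 with at least 5 pooled CPM stayed within 2-fold in every comparison. Smad7 and Smad9, at no more than 3.27 pooled CPM in any group, were at least 2-fold apart in 3 and 2 comparisons. Smad3, which GDF9 signalling activates, had the highest level per length and ran from 119 CPM in iPSC-derived GROs to 288 CPM in 6 dpp FGOs. Smad2 ran from 108 to 141 CPM and Smad4, the common partner, from 43.1 to 63.1 CPM. The top of the Smad4 range, in in vivo GROs, was 39.6 CPM with oocytes 1 to 16 alone, below every other group.

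Of 7 proprotein convertase genes 4 were tested. Furin, the most abundant per length, ran from 60.4 to 97.7 CPM (its highest level, in in vivo GROs, was 67.8 CPM with oocytes 1 to 16 alone) and was not 2-fold apart in any comparison. Pcsk6 had 6.54 CPM in in vivo GROs, 26.8 CPM for iPSC-derived and 30.9 CPM in gonad-derived GROs, ratios of 1.95 and 2.16. In FGOs it had 22.8 CPM in vivo and 6.73 CPM in 6 dpp oocytes (ratio -1.69). For iPSC-derived and gonad-derived against in vivo FGOs its ratios were -0.80 and -0.28, both short of 2-fold. Its direction in cultured against in vivo oocytes was thus opposite in GROs and FGOs, and past 2-fold in FGOs for 6 dpp oocytes alone. In IVD@FGO, gonad-derived against 6 dpp FGOs, its ratio was 1.41. In growth in vivo its ratio was 1.73. In growth of iPSC-derived oocytes it was -1.03, or -0.96 without iPSC-derived GRO 6, and in growth of gonad-derived oocytes -0.71. Pcsk5 went from 0.612 to 5.35 CPM in growth in vivo (ratio 2.39) and from 1.62 to 6.29 CPM in growth of gonad-derived oocytes (1.68). In iPSC-derived FGOs it had 2.27 CPM, with ratios of -1.29 against gonad-derived and -1.08 against in vivo FGOs.

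Of 17 extracellular antagonists 9 to 11 were tested. In growth in vivo 4 were at least 2-fold higher and 2 lower, or 3 lower with in vivo GROs 1 to 16 alone. Htra1, a secreted protease that acts on TGF-beta proteins and was the most abundant of the list per length, went from 74.9 to 174 CPM (ratio 1.21). In growth of iPSC-derived oocytes it went the other way, from 153 to 69.9 CPM (-1.12), and 4 genes of the list were lower and 1 higher. Twsg1 was lower in FGOs in all 3 growth comparisons (-1.40, -1.30 and -1.25). Bmper, which binds BMPs, was lower in growth of iPSC-derived (-1.72) and gonad-derived oocytes (-1.86), and its ratio in vivo was -0.99. Bambi, a pseudoreceptor, had a growth ratio of -1.84 in vivo and was higher in all 3 cultured FGO groups than in vivo, with 21.9, 14.2 and 16.7 CPM in iPSC-derived, gonad-derived and 6 dpp against 5.38 CPM in in vivo oocytes. Chrdl1 had 5.97 pooled CPM in in vivo FGOs from a median of 0.556 and a highest oocyte of 37.0 CPM, and its growth ratio of 3.32 was 2.89 without in vivo FGO 13. Fstl1 had a growth ratio of 1.23 in vivo.

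Among 30 other TGF-beta family ligands, Tgfb2 had the highest level per length (90.7 to 180 on the scale above), higher than that of Bmp6. Bmp5 went from 42.7 to 163 CPM in growth in vivo (ratio 1.92), from 67.7 to 206 CPM in iPSC-derived (1.60) and from 99.3 to 206 CPM in gonad-derived oocytes (1.05, or 0.95 without gonad-derived FGO 19). In IVD@GRO it had a ratio of 1.21. It was thus the gene with the highest level among those of this list that were 2-fold apart in growth. Inhba, the activin A subunit and also a granulosa marker, had 9.91 CPM in 6 dpp FGOs against 1.64 CPM in in vivo FGOs (ratio 2.28), and without 6 dpp FGO 12, the oocyte with the highest granulosa sum, its ratio was 0.77. Against gonad-derived FGOs, with 0.751 CPM, its ratio went from -3.06 to -1.55 without that oocyte.

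Of 7 tested transcriptional regulators known to act on these or other oocyte genes, 3 were at least 2-fold lower in growth in vivo, 5 in growth of iPSC-derived and 2 in growth of gonad-derived oocytes, and 1 was higher in growth of iPSC-derived oocytes. The list's median ratio was -0.45, -1.14 and -0.42. Figla, a basic helix-loop-helix factor required for the primordial follicle, had ratios of -1.47, -1.61 and -1.57. Sohlh1 had ratios of -3.66, -4.22 and -2.91, from 18.3, 18.1 and 6.59 CPM in in vivo, iPSC-derived and gonad-derived GROs. The ratio of Sohlh1 in growth in vivo ran from -4.45 to -3.41 when any 1 oocyte was left out. Nobox, a homeobox factor that activates Gdf9 and Bmp15, stayed within 2-fold in all comparisons, between 929 and 1442 CPM. Taf4b had ratios of -1.29 in vivo and -1.30 in iPSC-derived oocytes. Foxo3 had 141 CPM in iPSC-derived against 68.8 CPM for gonad-derived and 37.7 CPM for in vivo FGOs (ratios 1.03 and 1.89), the former 0.98 without iPSC-derived FGO 18. Sohlh2 had 84.6 CPM in iPSC-derived against 23.8 CPM in gonad-derived GROs (1.81). Nr6a1, known to repress Gdf9 and Bmp15, had 61.6 CPM for iPSC-derived and 139 CPM for in vivo FGOs (-1.17).

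All 8 other oocyte-secreted factors were tested. At least 2-fold lower were 4 in growth of iPSC-derived, 4 in growth of gonad-derived oocytes and 1 in growth in vivo, where 4 more were lower but short of 2-fold (Zp1 -0.79, Zp3 -0.84, Astl -0.70 and Fgf8 -0.58). The list's median ratio was -0.92, -0.80 and -0.64, respectively. Zp2, a zona pellucida glycoprotein, had ratios of -2.08, -1.49 and -1.05. Zp1 had -1.77 and -1.16, Zp3 -1.46 and -1.26, and Astl -1.88 and -1.44 in growth of iPSC-derived and gonad-derived oocytes. Oosp3, from a cluster of related genes whose counts may be uncertain, was higher in growth of iPSC-derived oocytes (1.06). Between iPSC-derived and in vivo FGOs Zp1 (-1.09) and Zp2 (-1.30) were at least 2-fold lower. No gene of the list was 2-fold apart in any of the 5 comparisons of a single culture step. In these, 1.25% to 4.3% of all genes tested were at least 2-fold higher and 0.948% to 3.9% lower, so few of 8 genes would be called at such shares.

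Of 9 genes that follicle or other cells switch on in response to these ligands, 4 to 6 were tested. Id3, a target of BMP signalling in many cells, was lower in FGOs in all 3 growth comparisons (-2.56, -3.19 and -2.84), from 209, 192 and 177 CPM in in vivo, iPSC-derived and gonad-derived GROs. Id1 had 9.97 CPM for iPSC-derived, 3.80 CPM for gonad-derived, 5.75 CPM for 6 dpp and 1.77 CPM for in vivo FGOs. Over single 6 dpp FGOs the Id1 median was 3.14 CPM and the highest value 42.3 CPM. The Id1 ratio of 6 dpp to in vivo FGOs went from 1.46 to 1.05 without 6 dpp FGO 12. Id2 had 18.9 CPM for iPSC-derived and 7.56 CPM for in vivo FGOs (1.27).

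**Figure D5:**
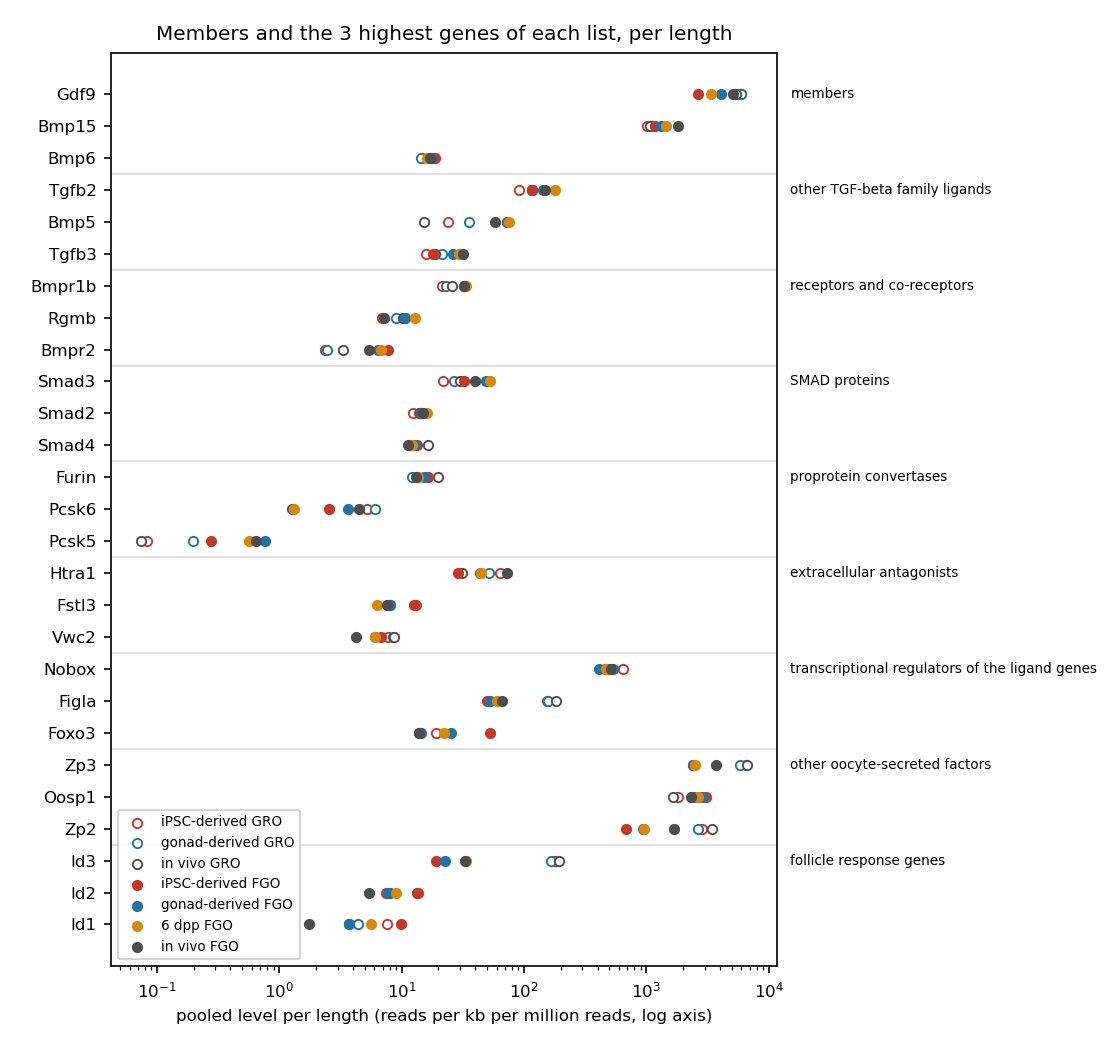
Pooled level per length (reads per kb per 1000000 reads, log axis) of the 3 members and of the 3 highest genes of each list, by group. Open symbols are GROs, filled symbols are FGOs and colours are sources. Gdf9, Bmp15, Zp3, Oosp1 and Zp2 lie highest, the receptors and SMADs lie between 2.37 and 52.9, and Id3, Figla and Zp3 have their GRO symbols to the right of their FGO symbols.

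Because regulators of the ligand genes were read, the 250 bases before the start of transcription are shown for the members in the RefSeq promoter table of GRCm38.p6, which matched 2 of the 3 (Bmp15 and Bmp6). Capitals mark matches on either strand to CANNTG, the E-box that FIGLA and SOHLH factors bind, and to the homeobox elements TAATTA and, as bound by NOBOX, TAATTG and also TAGTTG. The Bmp15 stretch is chrX:6320725-6320974 on the minus strand and the Bmp6 stretch is chr13:38345466-38345715 on the plus strand.
Bmp15: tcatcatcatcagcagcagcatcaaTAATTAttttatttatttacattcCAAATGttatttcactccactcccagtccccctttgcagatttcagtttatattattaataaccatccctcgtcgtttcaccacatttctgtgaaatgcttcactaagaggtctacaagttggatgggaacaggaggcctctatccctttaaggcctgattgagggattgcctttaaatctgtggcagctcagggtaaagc
Bmp6: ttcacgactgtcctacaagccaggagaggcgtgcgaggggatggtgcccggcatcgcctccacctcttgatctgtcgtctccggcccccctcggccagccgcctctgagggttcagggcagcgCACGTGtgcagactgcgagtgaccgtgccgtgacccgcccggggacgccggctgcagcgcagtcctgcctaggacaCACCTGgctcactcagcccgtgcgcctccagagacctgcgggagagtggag
Bmp15 had 1 CANNTG and 1 TAATTA match, and Bmp6 had 2 CANNTG matches and none of the other motifs. Of 32851 promoter windows of this length, 66.2% held CANNTG, 4.84% TAATTA, 7.17% TAATTG and 5.69% TAGTTG. The share of G and C was 40.4% in Bmp15 and 68.8% in Bmp6. A match is a description of the letters and not a shown binding site.

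Gdf9 (Entrez 14566) lies at chr11:53430774-53437904, Bmp15 (Entrez 12155) at chrX:6314054-6320724 and Bmp6 (Entrez 12161) at chr13:38345716-38500314 in GRCm38.p6. The sources used here do not say whether counting used the strand, so overlapping genes were looked up. Gdf9 overlaps Uqcrq by 58 bases at its 5′ end, and no gene overlaps Bmp15. Bmp6 contains 4930579J19Rik, which had at most 0.0207 pooled CPM in any group, and overlaps Txndc5 by 49 bases at its 3′ end. Txndc5 had 547 to 646 pooled CPM, so reads from these shared bases could enter the Bmp6 count.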

How the data were processed

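Single-end Smart-seq2 reads of 163 oocytes were aligned by the authors with STAR to GRCm38 (mm10) together with spike-ins, with 1 random placement of multiply mapping reads. The deposited values are raw counts, which the authors made with QuasR from uniquely mapped exonic reads of 1 random transcript per gene. The QuasR version and the use of strand are not given in the sources used here. No spike-in values were used. Symbols and coordinates came from the RefSeq table of GRCm38.p6, which matched 21907 of 21950 genes. The study's choice of oocytes by size was not applied.

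Counts were scaled to CPM and pooled per group (pseudocount 0.5; 1 for single oocytes). Genes entered a comparison when CPM was above 1 in at least 3 of its oocytes, and the size rule was 2-fold. Levels between genes were compared per length of the counted transcript. With 1 sample per group no test was made. Alternatives were TMM factors and coefficients of edgeR 4.0.16, size factors of DESeq2 1.42.0, totals without the 50 most counted genes, medians over oocytes, a pseudocount of 2, thinning to 2000000 reads, leaving out oocytes, a 4-fold rule and no filter.

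The members and the gene lists were chosen with earlier results of these data known. Named genes are the members, the 3 most like each member by either measure, genes that overlap a member and, of each list, the 3 highest per length and those at least 2-fold apart with at least 5 pooled CPM (up to 4 per comparison). Some genes are on several lists (Inhba, Amhr2, Figla, Nobox, Zp1 to Zp3, Oosp1 and the cumulus genes).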

Additional observations from a re-analysis of the deposited data

How the results depend on the processing

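The 33 level ratios of the members were recomputed under 10 or 11 alternatives each, which gave 351 values. None crossed 2-fold in either direction, and the largest move was 1.28-fold. In 27 ratios the sign held in every setting. It changed in 6, of which the largest main value was -0.34, for Bmp6 in IVD@GRO. That value became 0.01 with the in vivo GROs numbered 1 to 16 alone, an alternative added after the data were seen. The Gdf9 ratio in growth of iPSC-derived oocytes ran from -1.25 to -1.07. The number of list genes at least 2-fold apart was 38, and 9 were at least 4-fold apart. Without filter it was 39, and without the oocytes that stood apart it was 40. Under TMM scaling the SD of Bmp15 in in vivo FGOs was 0.21 in place of 0.17. Cause was not tested for any of these. No paired analysis was possible because the labels tie no oocyte to an animal, donor or culture.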
